A study of Saccharomyces cerevisiae with 12 samples.

Results

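The genes described here are 41 yeast genes of amino acid synthesis that stand under general amino acid control: the activator gene GCN4 and 40 genes of enzymes in the arginine, histidine, aromatic, branched-chain, lysine, threonine, asparagine and serine pathways. They were chosen by name, and each was matched to its probe set through the gene symbol of the array annotation, taking the probe set with the highest mean level. All 41 were measured among the 5449 yeast genes tested, each by 1 probe set that no other gene shares. RNA came from Saccharomyces cerevisiae of the CEN.PK113-7D background, a haploid laboratory strain that makes all its amino acids, grown in minimal galactose medium in pH-controlled fermenters and sampled in mid exponential growth. The 12 arrays fall into 6 groups of 2. E62A, E62B and E62C are mutants that the study obtained by evolution on galactose, SO16 and PGM2 are engineered strains, and REF is the starting strain. From the published design, SO16 carries deletions of GAL80, MIG1 and LAP3 (GAL6), while the strain named PGM2 was built to overexpress that phosphoglucomutase gene. The labels name no further alleles, and they do not say whether each evolved group is a single clone. They also do not say if replicate arrays were separate cultures, hence p-values measure the spread between arrays only, and this spread may be technical.

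Gcn4 is a transcription factor that switches on amino acid synthesis genes when cells are short of amino acids. Its amount is set mainly by translation of its messenger RNA: short upstream reading frames keep Gcn4 translation low in well-fed cells, and phosphorylation of the initiation factor eIF2 by the kinase Gcn2 raises it when uncharged tRNAs accumulate. The protein is then removed by phosphorylation through Pho85 and the cyclin Pcl5, followed by ubiquitination. In minimal medium the pathways must all run, and pathway-specific regulators such as Leu3 for leucine, Lys14 for lysine and the ArgR complex for arginine act on top of Gcn4.

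Levels are log2 values after robust multi-array averaging, so a difference of 1 is a doubling, and the level of one gene's probe set cannot be compared with that of another. A gene is said to be higher or lower, or to have risen or fallen, only where the adjusted p of the limma test was under 0.05, with Benjamini-Hochberg adjustment over the 5449 genes of the comparison. Differences are given ± the standard error (SE) of the fit, with 2 arrays per group. In the fits of a comparison without 1 array, only arrays of the groups compared were left out in turn. Arrays of the other groups, which also enter the estimate of spread, were kept. The deposited values ran between 5.42 and 14.4, with array medians of 6.72 to 6.89, and the members' mean levels of 10.05 to 13.34 lay well above the background level of 6.0. GAL80 lay at 6.29 and 6.04 on the arrays labelled SO16, against 11.32 and 11.43 on the REF arrays, and LAP3 and MIG1 were near background on the SO16 arrays too. The PGM2 gene went against its label, at 10.49 and 10.87 on the arrays labelled PGM2, against 12.14 and 12.11 on REF, and was highest, at 13.43 and 13.19, on those labelled E62C. Whether these labels were exchanged was not tested, so that what is given for PGM2 and E62C holds for the arrays so labelled, and groups are named by the labels of their arrays. The second E62C array and the second SO16 array had hybridisation controls of 8.84 to 8.87, against 10.1 to 11.6 on the other 10 arrays, and ribosomal RNA signals of 11.5 to 11.9, against 8.89 to 10.3.

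Across the 6 groups, 22 of the 41 genes (53.7%) differed by the moderated F-test of limma, against 27.2% of all genes. The 4 groups labelled E62A, E62C, SO16 and PGM2 each held members above REF, and the 41 genes had no member below REF in any of the 5 comparisons. The median deviation of the 41 genes from the REF mean was 0.22 and 0.27 on the E62A arrays, -0.04 and 0.03 on E62B, 0.20 and 0.25 on E62C, 0.04 and 0.16 on SO16, and 0.11 and 0.13 on PGM2, against -0.06 and 0.06 on the REF arrays themselves. The E62A and E62C arrays were thus the highest for the set as a whole, the E62B arrays lay within the range of REF, and the first SO16 array lay within it as well. Of the 41 genes, 3 were higher than REF on 4 labels (ARG1, ASN1 and ASN2), LEU9 was higher on 3, 9 on 2, 13 on 1 and 15 on none. The same tally was not made over all genes. The 5 comparisons share the REF arrays, so calls of a gene on several labels are not independent of each other.

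**Figure D1:**
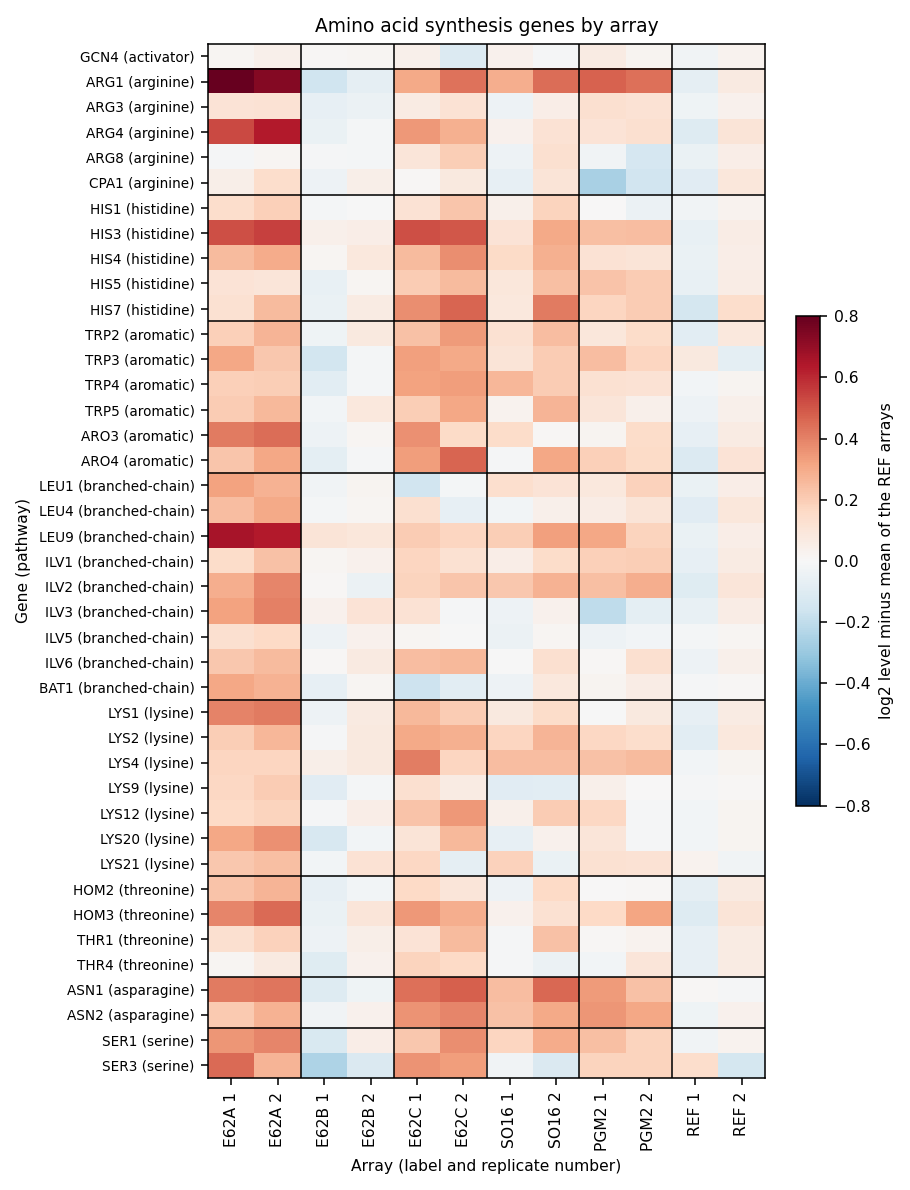
Each row is 1 of the 41 genes with its pathway and each column 1 of the 12 arrays. Colour gives the log2 level minus the mean of the 2 REF arrays, red for above and blue for below. The E62A and E62C columns are red in most rows, the E62B columns are pale, and the GCN4 row at the top is pale throughout, between 13.13 and 13.31 in level.

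GCN4 messenger RNA itself did not pass the test in any comparison. GCN4 lay at 13.26 and 13.28 on the arrays labelled E62A, 13.25 and 13.26 on E62B, 13.28 and 13.13 on E62C, 13.28 and 13.23 on SO16 and 13.31 and 13.27 on PGM2, against 13.22 and 13.27 on REF. The arrays of every group overlapped those of REF. The difference was 0.03 ± 0.07 for E62A (95% confidence interval -0.12 to 0.17), 0.01 ± 0.07 for E62B, -0.04 ± 0.07 for E62C (interval -0.18 to 0.11), 0.01 ± 0.07 for SO16 and 0.05 ± 0.07 for PGM2 (interval -0.10 to 0.19). The F-test over the 6 groups gave an adjusted p of 0.908. Arrays measure messenger RNA, so the amount of Gcn4 protein was not measured here.

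The arrays labelled E62A had 18 of the 41 genes above REF and none below. In that comparison 5.56% of all genes were higher and 6.97% lower, and 6.5% were higher of the 1692 genes within the members' range of mean level. All 41 members lay above 0, with a median difference of 0.24, against 0.0035 over all genes tested. In 36 of the 41 members both E62A arrays lay above both REF arrays, against 30.9% of all genes. Higher genes came from every pathway: 2 of 5 in arginine, 2 of 5 in histidine, 2 of 6 in the aromatic group, 5 of 9 in the branched-chain group, 2 of 7 in lysine, 1 of 4 in threonine, and both genes each of asparagine and serine. Leaving out the first E62A array gave a count of 9 and the second 6, and leaving out the first REF array gave 7 and the second 14. The 6 genes that passed whichever array was left out were ARG1, ARG4, HIS3, LEU9, LYS1 and ASN1, while the other 12 reached adjusted p-values of 0.0789 to 0.314.

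The arrays labelled E62C also had 18 of the 41 genes above REF and none below, where 4.84% of all genes were higher and 4.96% lower, and 6.09% were higher of those in the members' level range. The median was 0.23, against 0.0275 over all genes, and 38 members lay above 0. Both E62C arrays lay above both REF arrays in 33 of the 41 members and below both in 1, against 29.1% and 19.7% of all genes. The higher genes were 2 of 5 in arginine, 3 of 5 in histidine, 4 of 6 in the aromatic group, 1 of 9 in the branched-chain group, whose median was 0.06, 3 of 7 in lysine, 1 of 4 in threonine and both genes each of asparagine and serine. The count was 9 with the first E62C array left out and 6 with the second, 5 with the first REF array left out and 12 with the second. HIS3, ASN1 and ASN2 passed whichever array was left out, and the other 15 reached adjusted p-values of 0.0503 to 0.333.

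On the arrays labelled SO16, 5 members were above REF and none below, where 3.69% of all genes were higher and 5.1% lower. These were ARG1, TRP4, LEU9, ASN1 and ASN2, and the median over the 41 genes was 0.11, against -0.0040 over all genes. In 18 of the 41 members both SO16 arrays lay above both REF arrays, against 1055 of all 5449 genes (19.4%). None of the 5 passed in every fit without 1 array: 0 members passed without REF replicate 1, 1 without SO16 replicate 2, 2 without REF replicate 2 and 6 without SO16 replicate 1. For each of the 5, the highest adjusted p among those fits lay between 0.0794 and 0.308.

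On the arrays labelled PGM2, 5 members were likewise above REF and none below, where 7.03% of all genes were higher and 6.53% lower. ARG1, LEU9, ILV2, ASN1 and ASN2 made up the 5, and the median was 0.12, against 0.0090 over all genes. Both PGM2 arrays lay above both REF arrays in 24 of the 41 members and below both in 3, against 29.8% and 25.8% of all genes. Leaving out 1 array gave a count of 1 (first PGM2 array), 2 (second PGM2 array), 2 (first REF array) or 3 (second REF array). ARG1 passed in every one of those fits, and the other 4 reached adjusted p-values of 0.0527 to 0.342.

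The arrays labelled E62B had no member above or below REF by limma, and no gene of all those tested passed (0%). At an unadjusted p under 0.05 there were 0 members and 97 genes in all, or 1.78% of them. The median over the members was -0.0034, against 0.0152 over all genes. The differences ran between -0.18 ± 0.10 for SER3, a phosphoglycerate dehydrogenase of serine synthesis, and 0.10 ± 0.07 for LEU9. In simulated data of the same size for E62A against REF, changes of 0.25 were recovered in 20.3% of cases and changes of 0.5 in 91.3%. The comparison of E62B was not simulated.

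**Figure D2:**
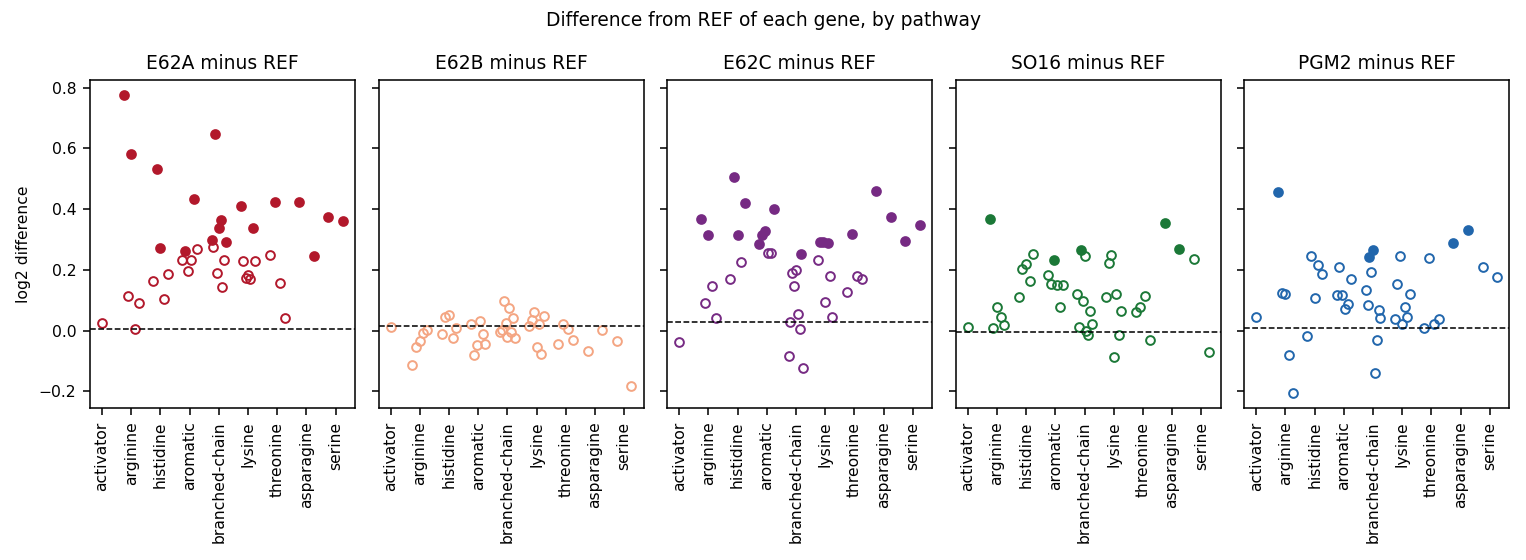
The log2 difference from REF is shown for each of the 41 genes, with 1 panel per comparison and genes placed by pathway along the x axis. Filled points passed the test at an adjusted p under 0.05, open points did not, and the dashed line is the median of all 5449 genes. The filled points number 18 for E62A, 0 for E62B, 18 for E62C, 5 for SO16 and 5 for PGM2, and all of them lie above 0.

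In the arginine pathway, 2 of the 5 members rose on E62A and E62C, ARG1 and ARG4, which encode the enzymes of the last steps. ARG1 encodes argininosuccinate synthetase, which joins citrulline and aspartate. It lay at 12.84 and 12.76 on the E62A arrays, 11.86 and 11.95 on E62B, 12.32 and 12.46 on E62C, 12.31 and 12.47 on SO16 and 12.50 and 12.46 on PGM2, against 11.95 and 12.09 on REF. Both E62A arrays were the highest of all, the E62C, SO16 and PGM2 arrays lay between them and REF without overlapping either, and the E62B arrays reached down to the lowest values. ARG1 rose by 0.78 ± 0.08 (1.71-fold) on the E62A arrays (adjusted p = 9.38e-05), 0.37 ± 0.08 on E62C (adjusted p = 0.0157), 0.37 ± 0.08 on SO16 (adjusted p = 0.0161) and 0.46 ± 0.08 on PGM2 (adjusted p = 0.00322). ARG4, the lyase that releases arginine in the next step, lay at 12.50 and 12.61 on E62A, 11.92 and 11.96 on E62B, 12.32 and 12.26 on E62C, 12.01 and 12.09 on SO16 and 12.08 and 12.10 on PGM2, against 11.87 and 12.08 on REF. Its E62A and E62C arrays stood clear of REF, while the other groups lay near or within the wide REF range. It rose by 0.58 ± 0.08 on E62A (adjusted p = 5.03e-04) and 0.32 ± 0.08 on E62C (adjusted p = 0.0264). ARG3, ornithine carbamoyltransferase, and ARG8, acetylornithine aminotransferase, did not pass against REF, with differences of -0.08 to 0.15 over the 5 groups. Among genes of earlier arginine steps outside the 41, ARG7, ARG2 and ORT1 rose on E62A, as given further on. CPA1 encodes the small subunit of the carbamoyl phosphate synthetase of this pathway, and its synthesis is known to be limited by arginine through an upstream reading frame. CPA1 lay at 11.43 and 11.54 on the PGM2 arrays, against 11.60 and 11.78 on REF, the lowest values of this gene, with a difference of -0.21 ± 0.09 that did not pass (adjusted p = 0.158).

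Among the histidine genes HIS3 moved most. HIS3 encodes imidazoleglycerol-phosphate dehydratase, and lay at 11.24 and 11.28 on the arrays labelled E62A, 10.77 and 10.78 on E62B, 11.24 and 11.22 on E62C, 10.84 and 11.03 on SO16 and 10.97 and 10.98 on PGM2, against 10.67 and 10.79 on REF. The E62A and E62C arrays overlapped each other, clear above all other groups, those of SO16 and PGM2 lay in between, and E62B overlapped REF. HIS3 rose by 0.53 ± 0.07 on E62A (adjusted p = 7.14e-04) and by 0.50 ± 0.07 on E62C (adjusted p = 0.00135), and had differences of 0.20 ± 0.07 on SO16 (adjusted p = 0.137) and 0.24 ± 0.07 on PGM2 (adjusted p = 0.0532). HIS4, a multifunctional enzyme of the pathway, rose by 0.27 ± 0.07 on E62A and 0.31 ± 0.07 on E62C. HIS7, imidazole glycerol phosphate synthase, lay at 9.99 and 10.13 on the E62A arrays, 9.82 and 9.94 on E62B, 10.25 and 10.34 on E62C, 9.96 and 10.29 on SO16 and 10.04 and 10.07 on PGM2, against 9.73 and 10.01 on REF. Its REF arrays differed from each other more than those of most members, and the E62C arrays were above both. HIS7 rose by 0.42 ± 0.12 on E62C (adjusted p = 0.0451). HIS1, the first enzyme of the pathway, and HIS5, histidinol-phosphate aminotransferase, passed against REF in no group, with differences of -0.02 to 0.23.

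For the aromatic amino acids, ARO3 and ARO4 encode a pair of isoenzymes for the first step, inhibited by phenylalanine and by tyrosine. ARO3 lay at 11.35 and 11.38 on E62A, 10.89 and 10.95 on E62B, 11.30 and 11.08 on E62C, 11.08 and 10.94 on SO16 and 10.96 and 11.08 on PGM2, against 10.87 and 11.00 on REF. Both E62A arrays were above REF, the E62C arrays differed from each other, and those of the other groups overlapped or lay close to REF. ARO3 rose by 0.43 ± 0.09 on E62A (adjusted p = 0.00801), and had a difference of 0.26 ± 0.09 on E62C (adjusted p = 0.0954). ARO4 lay at 11.37 and 11.46 on the arrays labelled E62A, 11.07 and 11.13 on E62B, 11.48 and 11.61 on E62C, 11.14 and 11.45 on SO16 and 11.33 and 11.30 on PGM2, against 11.04 and 11.25 on REF. Here the E62C arrays were the highest and the REF arrays were far apart. The rise of ARO4 on E62C was 0.40 ± 0.11 (adjusted p = 0.0368), beside 0.27 ± 0.11 on E62A (adjusted p = 0.136). In the tryptophan branch 1 of 4 genes rose on E62A and 3 of 4 on E62C, and the difference between these counts was not tested. TRP4, anthranilate phosphoribosyltransferase, lay at 10.27 and 10.28 on the E62A arrays, 10.00 and 10.07 on E62B, 10.40 and 10.41 on E62C, 10.34 and 10.28 on SO16 and 10.20 and 10.19 on PGM2, against 10.06 and 10.10 on REF. Every array of E62A, E62C, SO16 and PGM2 was above both REF arrays. TRP4 rose by 0.33 ± 0.06 on E62C (adjusted p = 0.00514) and 0.23 ± 0.06 on SO16 (adjusted p = 0.0344), and its 0.19 ± 0.06 on E62A did not pass (adjusted p = 0.059). TRP2, anthranilate synthase, rose by 0.29 ± 0.08 on E62C, and TRP3, its partner subunit, by 0.26 ± 0.08 on E62A and 0.31 ± 0.08 on E62C. TRP5, tryptophan synthase, passed against REF in no group, with differences of 0.03 to 0.25.

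In the branched-chain pathway the labels differed from each other as well as from REF. LEU9 and LEU4 encode isopropylmalate synthases, which commit carbon to leucine. LEU9 lay at 10.83 and 10.80 on E62A, 10.27 and 10.26 on E62B, 10.37 and 10.34 on E62C, 10.37 and 10.50 on SO16 and 10.48 and 10.35 on PGM2, against 10.11 and 10.23 on REF. The E62A arrays stood alone at the top, the E62C, SO16 and PGM2 arrays shared a band above REF, and the E62B arrays lay just above REF. LEU9 rose by 0.65 ± 0.07 (1.57-fold) on E62A (adjusted p = 1.49e-04), 0.26 ± 0.07 on SO16 (adjusted p = 0.0468) and 0.24 ± 0.07 on PGM2 (adjusted p = 0.0495), and its 0.19 ± 0.07 on E62C did not pass (adjusted p = 0.138). LEU4 passed against REF in no group, with 0.28 ± 0.08 on E62A (adjusted p = 0.0511). LEU4 and LEU9 are similar in sequence, as are LYS20 and LYS21, ASN1 and ASN2 and other pairs here, and cross-hybridisation between the members of a pair was not tested.

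LEU1, isopropylmalate isomerase, lay at 12.33 and 12.29 on the arrays labelled E62A, 11.98 and 12.03 on E62B, 11.85 and 11.996 on E62C, 12.14 and 12.12 on SO16 and 12.09 and 12.19 on PGM2, against 11.96 and 12.06 on REF. Its E62A arrays were the highest, and the lowest value of all was on an E62C array. LEU1 rose by 0.30 ± 0.07 on E62A (adjusted p = 0.0191), and its difference on E62C was -0.08 ± 0.07 (adjusted p = 0.526). BAT1, the mitochondrial aminotransferase that completes leucine, isoleucine and valine, lay at 12.36 and 12.33 on the E62A arrays, 11.98 and 12.07 on E62B, 11.89 and 11.97 on E62C, 12.01 and 12.13 on SO16 and 12.07 and 12.11 on PGM2, against 12.04 and 12.06 on REF. Both E62C arrays were below both REF arrays and both E62A arrays were above them. BAT1 rose by 0.29 ± 0.07 on E62A (adjusted p = 0.0154), and -0.12 ± 0.07 on E62C did not pass (adjusted p = 0.294). ILV3, dihydroxyacid dehydratase, lay at 12.87 and 12.95 on E62A, 12.58 and 12.66 on E62B, 12.67 and 12.54 on E62C, 12.51 and 12.58 on SO16 and 12.35 and 12.47 on PGM2, against 12.49 and 12.61 on REF. The E62A arrays were above all others and the PGM2 arrays below all others. ILV3 rose by 0.36 ± 0.08 on E62A (adjusted p = 0.01), and its -0.14 ± 0.08 on PGM2 did not pass (adjusted p = 0.306). ILV2 is the catalytic subunit of acetolactate synthase and ILV6 its regulatory subunit. ILV2 lay at 12.04 and 12.14 on the arrays labelled E62A, 11.76 and 11.70 on E62B, 11.93 and 11.97 on E62C, 11.97 and 12.03 on SO16 and 11.99 and 12.04 on PGM2, against 11.66 and 11.85 on REF. Every E62A, E62C, SO16 and PGM2 array was above both REF arrays. It rose by 0.34 ± 0.08 on E62A (adjusted p = 0.0132) and 0.26 ± 0.08 on PGM2 (adjusted p = 0.042), and ILV6 rose by 0.25 ± 0.07 on E62C (adjusted p = 0.0483). Threonine deaminase (ILV1) and the reductoisomerase (ILV5) passed against REF in no group, with differences of -0.03 to 0.19.

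**Figure D3:**
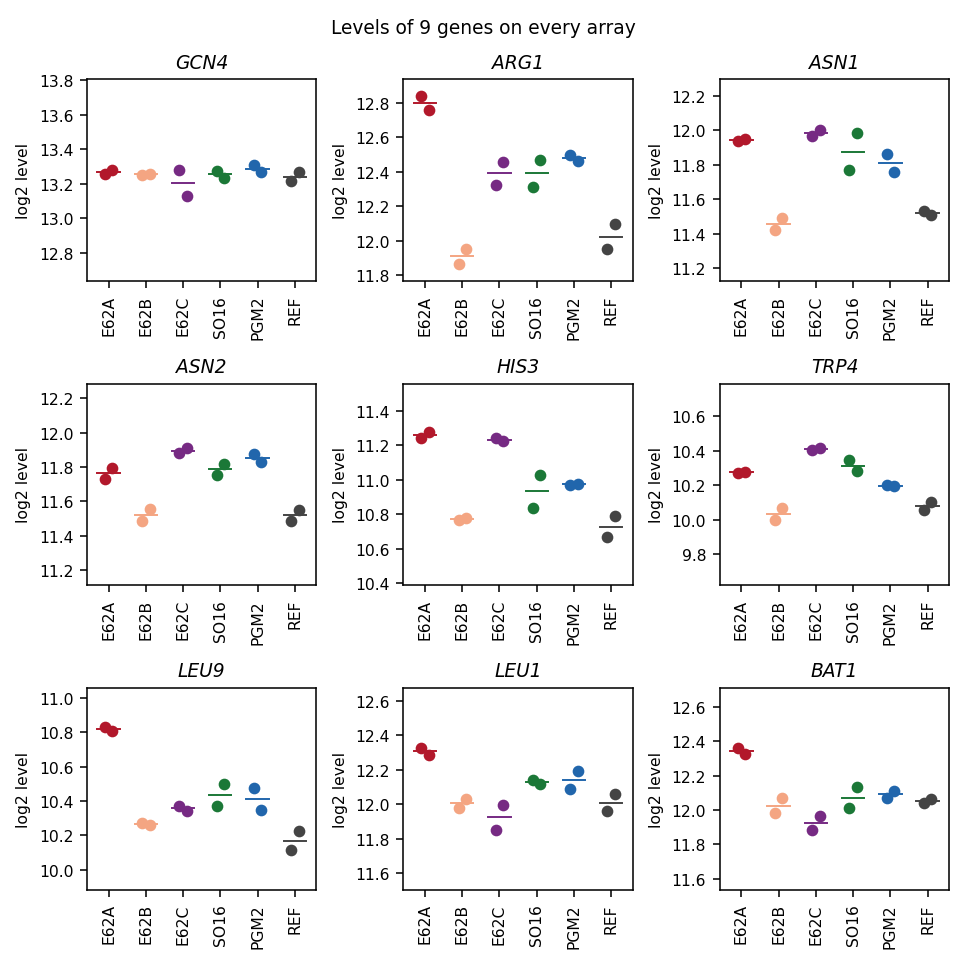
The log2 level of 9 genes is shown on every array, with 1 point per array, 2 per label, and a line at the mean of each label. GCN4 is level across the labels. ARG1 and LEU9 are highest on the E62A arrays, ASN1, ASN2 and TRP4 have every E62A, E62C, SO16 and PGM2 array above both REF arrays (TRP4 passed the test on E62C and SO16), HIS3 is highest on E62A and E62C, and LEU1 and BAT1 are higher on E62A than on E62C. Each panel has its own y axis, and levels cannot be compared between panels.

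Of the 7 lysine genes, 2 rose on E62A and 3 on E62C. In the direct comparison of E62C with E62A none passed by limma (smallest adjusted p = 0.114). At an unadjusted p under 0.05 there was 1 (14.3%), against 32.9% of all genes. LYS1, saccharopine dehydrogenase of the last step, lay at 11.45 and 11.46 on the E62A arrays, 11.00 and 11.12 on E62B, 11.30 and 11.25 on E62C, 11.12 and 11.19 on SO16 and 11.04 and 11.12 on PGM2, against 10.98 and 11.11 on REF. Its E62A arrays were the highest, with E62C next and the other groups close to REF. LYS1 rose by 0.41 ± 0.07 on E62A (adjusted p = 0.0033), and had 0.23 ± 0.07 on E62C (adjusted p = 0.0713). LYS20, a homocitrate synthase of the first step, rose by 0.34 ± 0.08 on E62A (adjusted p = 0.0149). LYS4, homoaconitase, lay at 11.35 and 11.35 on E62A, 11.22 and 11.25 on E62B, 11.59 and 11.35 on E62C, 11.42 and 11.43 on SO16 and 11.41 and 11.43 on PGM2, against 11.15 and 11.20 on REF. All arrays of the 5 other labels were above REF, those of E62B by the least, and the E62C arrays differed from each other. On E62C, LYS4 rose by 0.29 ± 0.08 (adjusted p = 0.0361), LYS2, aminoadipate reductase, by 0.29 ± 0.07 (adjusted p = 0.0307) and LYS12, homoisocitrate dehydrogenase, by 0.29 ± 0.08 (adjusted p = 0.0476). LYS9, the other saccharopine dehydrogenase, and LYS21, the other homocitrate synthase, passed against REF in no group, with differences of -0.09 to 0.23.

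In the threonine pathway HOM3, aspartate kinase at the entry from aspartate, was the gene that moved. HOM3 lay at 12.08 and 12.15 on the arrays labelled E62A, 11.64 and 11.79 on E62B, 12.04 and 11.98 on E62C, 11.73 and 11.81 on SO16 and 11.85 and 12.01 on PGM2, against 11.59 and 11.79 on REF. The REF arrays were far apart, and those of E62A, E62C and PGM2 were above both. It rose by 0.42 ± 0.09 on E62A (adjusted p = 0.00914) and 0.32 ± 0.09 on E62C (adjusted p = 0.0452), and had 0.24 ± 0.09 on PGM2 (adjusted p = 0.111). HOM2, aspartate semialdehyde dehydrogenase, THR1, homoserine kinase, and THR4, threonine synthase, passed against REF in no group, with differences of -0.04 to 0.25.

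The asparagine synthetases ASN1 and ASN2, which form asparagine from aspartate, were higher than REF on the same 4 labels as ARG1. ASN1 lay at 11.94 and 11.95 on the E62A arrays, 11.42 and 11.49 on E62B, 11.96 and 12.0003 on E62C, 11.77 and 11.98 on SO16 and 11.86 and 11.76 on PGM2, against 11.53 and 11.51 on REF. All arrays of E62A, E62C, SO16 and PGM2 were above REF, and both E62B arrays were below it. ASN1 rose by 0.42 ± 0.08 on E62A (adjusted p = 0.00429), 0.46 ± 0.08 on E62C (adjusted p = 0.00301), 0.36 ± 0.08 on SO16 (adjusted p = 0.0141) and 0.29 ± 0.08 on PGM2 (adjusted p = 0.0313). ASN2 lay at 11.73 and 11.80 on E62A, 11.49 and 11.56 on E62B, 11.88 and 11.91 on E62C, 11.75 and 11.82 on SO16 and 11.87 and 11.83 on PGM2, against 11.49 and 11.55 on REF. The same 4 groups stood clear of REF, and E62B overlapped it. ASN2 rose by 0.24 ± 0.06 on E62A (adjusted p = 0.0277), 0.37 ± 0.06 on E62C (adjusted p = 0.0033), 0.27 ± 0.06 on SO16 (adjusted p = 0.0229) and 0.33 ± 0.06 on PGM2 (adjusted p = 0.00487). These comparisons share the REF arrays, so the 4 rises are not independent of each other. On SO16 the ASN2 call ended without SO16 replicate 2, REF replicate 1 or REF replicate 2 (highest adjusted p = 0.168). The ASN1 call ended without the same arrays, with 0.0794 as its highest adjusted p. On PGM2 the ASN1 call ended without any 1 of its arrays (highest adjusted p = 0.226), and the ASN2 call without PGM2 replicate 1 (adjusted p = 0.0527).

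Serine synthesis starts with SER3, and SER1 is the phosphoserine aminotransferase that follows. SER1 lay at 11.84 and 11.88 on the arrays labelled E62A, 11.36 and 11.54 on E62B, 11.70 and 11.86 on E62C, 11.66 and 11.79 on SO16 and 11.73 and 11.67 on PGM2, against 11.46 and 11.51 on REF. The E62A, E62C, SO16 and PGM2 arrays were above REF, and the E62B arrays lay on both sides of it. It rose by 0.37 ± 0.08 on E62A (adjusted p = 0.0116) and 0.29 ± 0.08 on E62C (adjusted p = 0.0459), with 0.24 ± 0.08 on SO16 (adjusted p = 0.113) and 0.21 ± 0.08 on PGM2 (adjusted p = 0.131). SER3 lay at 11.43 and 11.25 on the E62A arrays, 10.74 and 10.87 on E62B, 11.34 and 11.32 on E62C, 10.95 and 10.87 on SO16 and 11.16 and 11.16 on PGM2, against 11.13 and 10.84 on REF. The E62A and E62C arrays were above REF, the PGM2 arrays just above it, and the SO16 arrays within its wide range. SER3 rose by 0.36 ± 0.10 on E62A (adjusted p = 0.0332) and 0.35 ± 0.10 on E62C (adjusted p = 0.0476).

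The groups were then compared with each other directly, without the REF arrays in the difference. Between the arrays labelled E62C and E62A, 6 of the 41 genes were lower on E62C and none higher, where 7.84% of all genes were lower and 9.97% higher. The 6 were 4 branched-chain genes and the last arginine steps. In levels, given above, every E62C array was below every E62A array in all 6. The differences were -0.46 ± 0.07 for LEU9 (adjusted p = 0.00162), -0.42 ± 0.07 for BAT1 (adjusted p = 0.00185), -0.38 ± 0.07 for LEU1 (adjusted p = 0.00444) and -0.31 ± 0.08 for ILV3 (adjusted p = 0.0199). For arginine they were -0.41 ± 0.08 for ARG1 (adjusted p = 0.00629) and -0.27 ± 0.08 for ARG4 (adjusted p = 0.0378). The branched-chain median was -0.25, with both E62C arrays below both E62A arrays in 7 of 9 genes (27.2% of all genes), while the medians of the histidine, aromatic and asparagine genes lay between 0.04 and 0.08. HIS3, at -0.03 ± 0.07 with a 95% confidence interval of -0.19 to 0.14, and ASN1, at 0.04 ± 0.08 with -0.13 to 0.21, did not differ beyond the spread. Without E62A replicate 1 the count was 2, and LEU9 and BAT1 passed whichever array was left out, while the other 4 reached adjusted p-values of 0.0509 to 0.234.

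**Figure D4:**
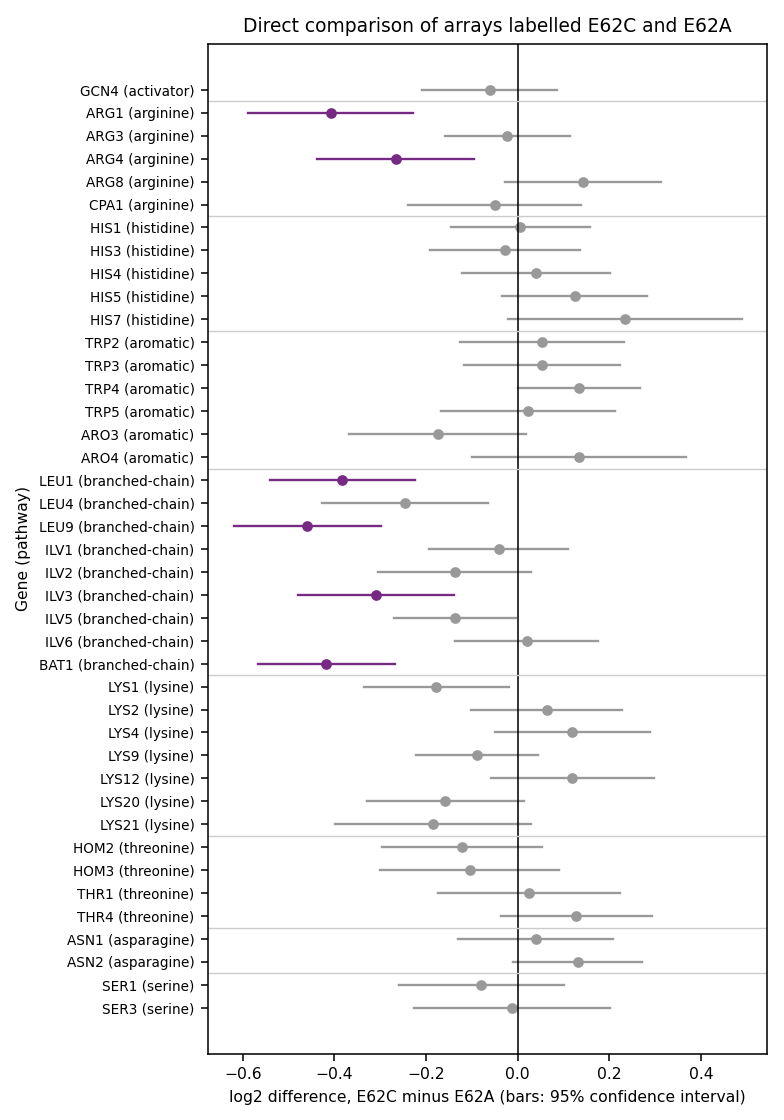
The log2 difference between the E62C and E62A arrays is shown for each of the 41 genes, E62C minus E62A, with bars for the 95% confidence interval of the limma fit. The 6 genes in purple passed at an adjusted p under 0.05 and all lie below 0: ARG1, ARG4, LEU1, LEU9, ILV3 and BAT1. Genes in grey did not pass.

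The E62A arrays were then compared with those labelled SO16 and PGM2. Against SO16, 13 members were higher on E62A and none lower, where 10.4% of all genes were higher and 9.49% lower. They included 0.51 ± 0.08 for ARG4 (adjusted p = 9.68e-04), 0.43 ± 0.10 for SER3 (adjusted p = 0.00974), 0.41 ± 0.08 for ARG1 (adjusted p = 0.0051) and 0.38 ± 0.07 for LEU9 (adjusted p = 0.00377). The others were HIS3, ARO3, LEU4, ILV3, BAT1, LYS1, LYS9, LYS20 and HOM3, with 0.26 to 0.37. Both asparagine genes differed by no more than 0.07 in size. The count was 4 without E62A replicate 1 or without E62A replicate 2, and ARG4 and LEU9 passed whichever array was left out, while the other 11 reached adjusted p-values of 0.0605 to 0.216.

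Against PGM2, 11 members were higher on E62A and none lower, where 10.6% of all genes were higher and 12.1% lower. The largest differences were 0.50 ± 0.08 for ILV3 (adjusted p = 7.52e-04), 0.46 ± 0.08 for ARG4 (adjusted p = 0.00135), 0.40 ± 0.07 for LEU9 (adjusted p = 0.00212) and 0.37 ± 0.07 for LYS1 (adjusted p = 0.00332). These 4 passed whichever array was left out. ARG1, CPA1, HIS3, ARO3, BAT1, LYS20 and HOM2 made up the rest, with 0.24 to 0.35, and reached adjusted p-values of 0.117 to 0.223 when 1 array was left out. The count was 4 without either E62A array, 5 without PGM2 replicate 1 and 6 without PGM2 replicate 2.

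Among E62A, E62C, SO16 and PGM2, 3 further pairs were compared, while E62B was compared only with REF. Between E62C and SO16, SER3 was the only member to pass, higher on E62C by 0.42 ± 0.10 (adjusted p = 0.0406), where 1.52% of all genes were higher and 1.91% lower. Its call ended without any 1 of its arrays (highest adjusted p = 0.11). Between E62C and PGM2 no member passed by limma, where 8.85% of all genes differed in either direction. At an unadjusted p under 0.05 there were 14 members (34.1%), against 24.9% of all genes, and the smallest adjusted p was 0.0519. Between SO16 and PGM2 no member passed either, where 3.4% of all genes differed, with 2 members (4.88%) and 17.2% of all genes at an unadjusted p under 0.05 and a smallest adjusted p of 0.195.

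Other genes around the same pathways were examined in 9 lists, of which 75 of 78 genes were measured. Among 19 other steps of the same pathways, 6 rose on E62A, 8 on E62C, 2 on SO16 and 2 on PGM2, and 0 rose or fell on E62B. On those 4 labels this was 31.6%, 42.1%, 10.5% and 10.5%, against 5.56%, 4.84%, 3.69% and 7.03% of all genes. Medians against REF were 0.17, 0.21, 0.15 and 0.08, and 0.0035, 0.0275, -0.0040 and 0.0090 over all genes. ARO9, an aromatic aminotransferase of amino acid breakdown, lay at 8.37 and 8.60 on E62A, 7.04 and 7.16 on E62B, 8.28 and 8.13 on E62C, 7.74 and 7.95 on SO16 and 7.85 and 8.24 on PGM2, against 7.16 and 7.28 on REF. Every array of those 4 labels was above both REF arrays, and the E62B arrays lay at or below the lower REF array. The rise was 1.27 ± 0.13 (2.41-fold) on E62A (adjusted p = 7.42e-05), 0.99 ± 0.13 on E62C (adjusted p = 5.83e-04), 0.63 ± 0.13 on SO16 (adjusted p = 0.0111) and 0.83 ± 0.13 on PGM2 (adjusted p = 0.00134). ARG7, an acetyltransferase of ornithine synthesis, rose by 0.64 ± 0.08 on E62A (adjusted p = 2.68e-04), 0.47 ± 0.08 on E62C (adjusted p = 0.00276) and 0.35 ± 0.08 on PGM2 (adjusted p = 0.0136), and its E62A and E62C calls passed whichever array was left out. ORT1, the mitochondrial ornithine transporter, rose by 0.34 ± 0.08 on E62A (adjusted p = 0.0174) and 0.44 ± 0.08 on E62C (adjusted p = 0.00441). ARG2, acetylglutamate synthase, rose by 0.36 ± 0.09 on E62A (adjusted p = 0.0171). The E62A calls of ORT1 and ARG2 ended without any 1 of their arrays (highest adjusted p = 0.121 for ORT1 and 0.125 for ARG2). ARO2, chorismate synthase, rose by 0.43 ± 0.07 on E62A, 0.54 ± 0.07 on E62C and 0.30 ± 0.07 on SO16, and SER2, phosphoserine phosphatase, by 0.48 ± 0.10 on E62C. On SO16 the ARO9 call ended without SO16 replicate 2 or REF replicate 1 (highest adjusted p = 0.108), and the ARO2 call without SO16 replicate 2, REF replicate 1 or REF replicate 2 (highest adjusted p = 0.158). The ARG7 call on PGM2 ended without PGM2 replicate 1, REF replicate 1 or REF replicate 2 (highest adjusted p = 0.14), and the SER2 call on E62C without E62C replicate 2 or REF replicate 1 (highest adjusted p = 0.0862).

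The arginine breakdown genes both rose on E62A and moved apart from each other on E62C and PGM2. CAR1, arginase, lay at 9.70 and 10.02 on the arrays labelled E62A, 8.71 and 8.72 on E62B, 9.28 and 9.60 on E62C, 9.33 and 9.49 on SO16 and 9.46 and 9.43 on PGM2, against 8.80 and 8.85 on REF. All arrays of E62A, E62C, SO16 and PGM2 were above REF, and both E62B arrays were below it. CAR1 rose by 1.03 ± 0.12 on E62A (adjusted p = 1.63e-04), 0.61 ± 0.12 on E62C (adjusted p = 0.0069), 0.58 ± 0.12 on SO16 (adjusted p = 0.00943) and 0.62 ± 0.12 on PGM2 (adjusted p = 0.00479). CAR2, the ornithine aminotransferase that follows, lay at 9.72 and 9.97 on the E62A arrays, 9.25 and 9.24 on E62B, 8.39 and 8.51 on E62C, 8.64 and 8.82 on SO16 and 8.18 and 8.46 on PGM2, against 9.02 and 9.33 on REF. Here only the E62A arrays were above REF, and those of E62C, SO16 and PGM2 were all below it. CAR2 rose by 0.68 ± 0.13 on E62A (adjusted p = 0.00489), changed by -0.72 ± 0.13 on E62C (adjusted p = 0.00396) and by -0.85 ± 0.13 on PGM2 (adjusted p = 9.09e-04), and had -0.44 ± 0.13 on SO16 (adjusted p = 0.0537). The direct comparison of CAR2 gave -1.39 ± 0.13 for E62C minus E62A (adjusted p = 3.68e-05), and 1.12 ± 0.13 and 1.53 ± 0.13 for E62A minus SO16 and minus PGM2. CAR1 passed in the same directions, with -0.42, 0.45 and 0.42, and each of these direct calls of CAR1 ended without at least 1 array. The E62A call of CAR2 ended without E62A replicate 2 or REF replicate 1 (highest adjusted p = 0.0662), and the CAR1 calls ended without REF replicate 1 (adjusted p = 0.065) on E62C and without REF replicate 1 (adjusted p = 0.0836) on SO16.

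**Figure D5:**
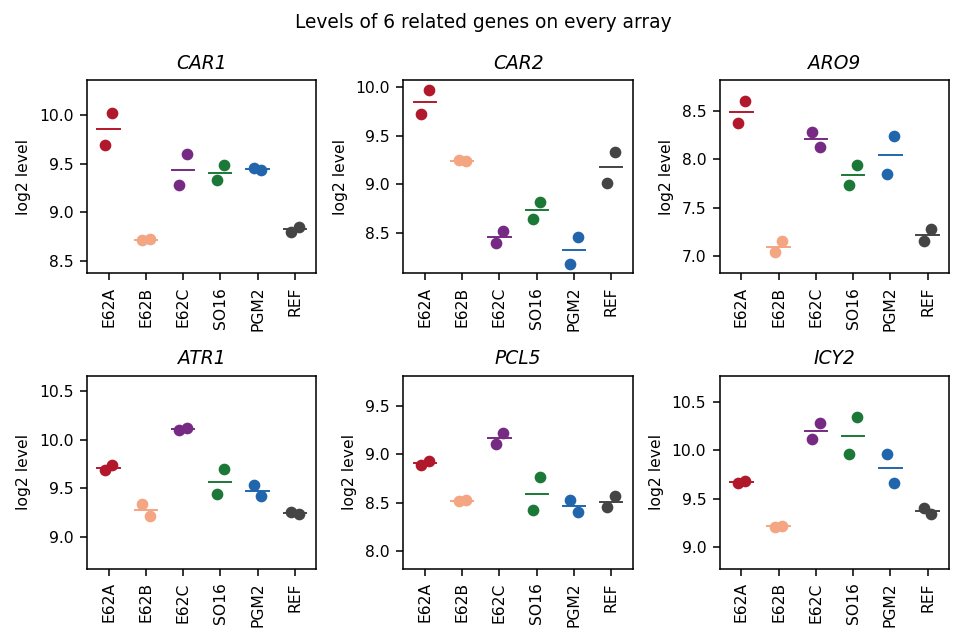
The log2 level of 6 related genes is shown on every array, with 1 point per array, 2 per label, and a line at the mean of each label. CAR1 and ARO9 are above REF on the E62A, E62C, SO16 and PGM2 arrays, CAR2 is high on E62A alone and low on E62C, SO16 and PGM2, and ATR1 and PCL5 are highest on E62C. Each panel has its own y axis.

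Genes that control Gcn4 were mostly level at the messenger RNA. Of 11 genes of its translational control, none rose or fell against REF by limma. Those at an unadjusted p under 0.05 numbered 1 on E62A, 0 on E62B, 2 on E62C, 1 on SO16 and 1 on PGM2. These are 9.09%, 0%, 18.2%, 9.09% and 9.09%, against 25.2%, 1.78%, 24.6%, 20.8% and 24.9% of all genes. The closest to passing was GCN20, a partner of the Gcn2 activator Gcn1, with 0.33 ± 0.10 on E62C (adjusted p = 0.0612). PCL5, the cyclin that marks Gcn4 for removal and is itself a Gcn4 target, lay at 8.89 and 8.93 on E62A, 8.52 and 8.53 on E62B, 9.11 and 9.22 on E62C, 8.42 and 8.77 on SO16 and 8.53 and 8.41 on PGM2, against 8.45 and 8.57 on REF. The E62A and E62C arrays were above REF, and those of SO16 were on both sides. It rose by 0.40 ± 0.10 on E62A (adjusted p = 0.0272) and 0.66 ± 0.10 on E62C (adjusted p = 0.00198), and the kinase gene PHO85 was lower on PGM2 (-0.31 ± 0.08, adjusted p = 0.0254). The E62A call of PCL5 ended without any 1 of its arrays (highest adjusted p = 0.178), and the PHO85 call without any 1 of its arrays (highest adjusted p = 0.175). Among 10 pathway-specific regulators, GAT1, a GATA activator of nitrogen genes, rose on E62A (0.38 ± 0.10, adjusted p = 0.0308) and LYS14, the activator of lysine genes, fell there (-0.31 ± 0.08, adjusted p = 0.028). No regulator passed on the other labels, and on E62A 5.56% of all genes were higher and 6.97% lower. The GAT1 call ended without E62A replicate 1, E62A replicate 2 or REF replicate 1 (highest adjusted p = 0.246), and the LYS14 call without E62A replicate 1, E62A replicate 2 or REF replicate 2 (highest adjusted p = 0.183).

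Of 4 targets of Gcn4 outside amino acid synthesis, 1 rose on E62A, 0 on E62B, 2 on E62C, 2 on SO16 and 3 on PGM2. In these comparisons 5.56%, 0%, 4.84%, 3.69% and 7.03% of all genes were higher. ATR1, a membrane efflux pump, lay at 9.69 and 9.74 on the arrays labelled E62A, 9.33 and 9.21 on E62B, 10.10 and 10.12 on E62C, 9.43 and 9.70 on SO16 and 9.53 and 9.42 on PGM2, against 9.25 and 9.23 on REF. The E62C arrays were the highest, those of E62A, SO16 and PGM2 were also above REF, and the E62B arrays lay across it. ATR1 rose by 0.47 ± 0.09 on E62A (adjusted p = 0.00473), 0.87 ± 0.09 on E62C (adjusted p = 8.12e-05) and 0.33 ± 0.09 on SO16 (adjusted p = 0.0409), and it was higher on E62C than on E62A by 0.40 ± 0.09 (adjusted p = 0.0108), though not without E62A replicate 1 or E62A replicate 2 (highest adjusted p = 0.0964). ICY2, also called ATG41, rose by 0.83 ± 0.12 on E62C, 0.78 ± 0.12 on SO16 and 0.44 ± 0.12 on PGM2 (adjusted p = 0.00135, 0.00202 and 0.037). SNZ1 and SNO1, vitamin B6 synthesis genes, rose on PGM2 by 0.68 ± 0.12 and 0.43 ± 0.09, SNO1 at 6.73 and 6.64 on the PGM2 arrays, against 6.28 and 6.24 on REF, close to background. The ATR1 call ended without E62A replicate 2 (adjusted p = 0.0515) on E62A and without SO16 replicate 2, REF replicate 1 or REF replicate 2 (highest adjusted p = 0.168) on SO16. On PGM2 the ICY2 call ended without PGM2 replicate 1, REF replicate 1 or REF replicate 2 (highest adjusted p = 0.302), and the SNO1 call without PGM2 replicate 1 or REF replicate 2 (highest adjusted p = 0.0842).

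Of 4 glutamate and glutamine synthesis genes, 2 rose on E62C and none passed on the other labels. Of 3 proline synthesis genes, 1 rose on E62C and on PGM2, where 4.84% and 7.03% of all genes were higher. GDH3, a glutamate dehydrogenase, rose on E62C by 0.65 ± 0.17 (adjusted p = 0.0371), with 9.45 and 8.76 on the E62C arrays, against 8.36 and 8.55 on REF, so that 1 E62C array carried most of it. GLN1, glutamine synthetase, rose there by 0.34 ± 0.08 (adjusted p = 0.0255), and PRO1, the first enzyme of proline synthesis, by 0.25 ± 0.07 on E62C and 0.29 ± 0.07 on PGM2. The GDH3 call ended without E62C replicate 1, REF replicate 1 or REF replicate 2 (highest adjusted p = 0.244), and the GLN1 call without E62C replicate 1, E62C replicate 2 or REF replicate 1 (highest adjusted p = 0.218). Both PRO1 calls ended without any 1 of their arrays (highest adjusted p = 0.237 on E62C and 0.118 on PGM2). Of 19 cytosolic aminoacyl-tRNA synthetase genes, ILS1, for isoleucine, rose on E62C by 0.35 ± 0.08 (adjusted p = 0.0159). That is 5.26% of the list, against 4.84% of all genes higher on E62C. At an unadjusted p under 0.05 there were 6 on E62C (31.6%), against 24.6% of all genes. All 19 differences on E62C were above 0, with a median of 0.16, against 0.0275 over all genes. In 16 of the 19 both E62C arrays lay above both REF arrays, against 29.1% of all genes. The ILS1 call ended without E62C replicate 2, REF replicate 1 or REF replicate 2 (highest adjusted p = 0.108). None rose or fell by limma on the other 4 labels. Those at an unadjusted p under 0.05 numbered 2 on E62A, 0 on E62B, 2 on SO16 and 1 on PGM2. The shares were 10.5%, 0%, 10.5% and 5.26%, against 25.2%, 1.78%, 20.8% and 24.9% of all genes.

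The related genes also differed between the labels directly. PCL5 was higher on E62C than on SO16 by 0.57 ± 0.10 and than on PGM2 by 0.70 ± 0.10 (adjusted p = 0.0094 and 0.00155), and ATR1 by 0.54 ± 0.09 and 0.63 ± 0.09 (adjusted p = 0.00451 and 1.00e-03). ICY2 was higher on E62C than on E62A by 0.53, and lower on E62A than on SO16 (-0.48). SNZ1 (-0.45) and SNO1 were lower on E62A than on PGM2. These calls of ICY2, SNZ1 and SNO1 each ended without at least 1 of their arrays. GAT1 was higher on E62A than on SO16 by 0.51 ± 0.10 and than on PGM2 by 0.47 ± 0.10, and differed by -0.45 ± 0.10 for E62C minus E62A. TYR1, prephenate dehydrogenase of tyrosine synthesis, was higher on E62C than on E62A by 0.31 ± 0.06, and differed by -0.30 ± 0.06 and -0.27 ± 0.06 for E62A minus SO16 and minus PGM2. BAT2, the cytosolic branched-chain aminotransferase, was higher on E62A than on SO16 by 0.55 ± 0.10 (adjusted p = 0.0023). GCN20 was higher on E62C than on E62A by 0.40 ± 0.10 and GCD11, a subunit of eIF2, by 0.35 ± 0.09 (adjusted p = 0.017 and 0.0234). Both ATR1 calls, on E62C against SO16 and against PGM2, passed whichever of their arrays was left out. So did the PCL5 call on E62C against PGM2 and the BAT2 call on E62A against SO16. Among these calls, that of PCL5 on E62C against SO16 ended without E62C replicate 2. Those of GAT1, TYR1, GCN20 and GCD11 each ended without at least 1 array, with highest adjusted p-values of 0.107, 0.0585, 0.129 and 0.166 for E62C minus E62A.

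The 2 arrays of a label also differed in these genes. REF replicate 1 was below REF replicate 2 in 37 of the 41 members, with a median of -0.11, against -0.05 over all genes. For E62B it was 38 members with -0.07, against -0.01 over all genes, and for E62A 33 with -0.04, against -0.02. For SO16 it was 34 with -0.10, against -0.11 over all genes, so the gap there was as large over the whole array. For E62C it was 22 with -0.01, against -0.02, and for PGM2 21 with -0.0029, against 0.0086. How far the REF gap enters the differences from REF is given by the counts without each REF array above.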

How the data were processed

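The values analysed are the deposited table of log2 levels of 10928 probe sets on 12 Affymetrix yeast arrays. Per the submitters' processing notes, the authors made the log2 values by robust multi-array averaging (RMA) with the affy package, versions not stated. RMA subtracts background, gives all arrays the same distribution and combines the probes of a set, which can compress changes and hide shifts common to all genes. Total RNA was labelled with biotin, per the labels' protocols.

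Of 7244 probe sets with 1 gene symbol, 5498 matched a budding yeast gene and gave 5449 genes, taking the probe set with the highest mean. Background, 6.0, is the 95th percentile of 1746 fission yeast probe sets on the array. One mean per group was fitted over all 12 arrays with limma 3.58.1 in R 4.3.3 (6 residual and 4.965 prior degrees of freedom, median residual standard deviation 0.0841), with Benjamini-Hochberg adjustment over all genes within each of 11 comparisons at a threshold of 0.05, and a moderated F-test over the 6 groups. With 2 arrays on each side, 0.333 is the smallest p that an exact two-sided permutation test allows. The members and lists were chosen with earlier results of these data known, so no list was tested as a set, and its count and median stand beside those of all genes. Members are described on every array where they passed in 3 or more comparisons with REF or had the largest change of their pathway in one, with LEU1 and ARG4 added for the comparison of E62C with E62A after their values were seen. Up to 3 related genes with the largest change are named per list and comparison, or 2 where none passed, and not all of these are printed, while ARG2 and ORT1 were added after their values were seen. ARG5,6 and TRP1 had no named probe set and were not analysed here. No sequences are used. The 12 alternatives and the fits without 1 array are in the closing section. On simulated data for E62A against REF, with 200 of 5449 genes changed in 20 simulations, 99.6% of changes of 1 were recovered and 5.06% of calls were false. Figures were drawn with matplotlib.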

Additional observations from a re-analysis of the deposited data

Results flagged for a closer look

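The difference from REF was not the same on the arrays labelled E62C and E62A in 6 of the 41 genes, by the direct test of E62C minus E62A in limma. The values were -0.46 for LEU9, -0.42 for BAT1, -0.41 for ARG1, -0.38 for LEU1, -0.31 for ILV3 and -0.27 for ARG4, and each was lower on both E62C arrays than on both E62A arrays. These 6 are 4 of the 9 branched-chain genes and 2 of the 5 arginine genes. Of the members 14.6% were lower on E62C and 0% higher, against 7.84% and 9.97% of all genes. At an unadjusted p under 0.05 by limma the shares were 24.4% of the members and 32.9% of all genes. LEU2, another leucine gene outside the 41, differed in the same direction (-0.29 ± 0.07, adjusted p = 0.0138). This call ended without E62A replicate 1, E62A replicate 2 or E62C replicate 2. Among the 19 other steps of the same pathways, LEU2 alone was lower on E62C than on E62A (7.84% of all genes). ARO7, TYR1 and SER2 were higher (9.97% of all genes).

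CAR2, ornithine aminotransferase of arginine breakdown, was above REF on the E62A arrays and below REF on those labelled E62C and PGM2. The direct difference was -1.39 for E62C minus E62A and 1.53 for E62A minus PGM2, and both passed in every alternative and in every fit without 1 array. CAR1, arginase of the same route, was above REF on all 3 labels.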

How the results depend on the processing

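No result for a gene changed direction among those that had passed, under any alternative or fit without 1 array. Leaving out 1 array gave 6 to 14 members for E62A against REF, 0 for E62B, 5 to 12 for E62C, 0 to 6 for SO16, 1 to 3 for PGM2, 2 to 6 for E62C minus E62A, 4 to 12 for E62A minus SO16, 4 to 6 for E62A minus PGM2, 0 to 2 for E62C minus SO16 and 9 to 29 for the F-test, against 18, 0, 18, 5, 5, 6, 13, 11, 1 and 22 with all arrays. Array weights gave 31 for E62A, 7 for E62C, 0 for SO16 and 8 for PGM2 against REF, 18 for E62A minus PGM2 and 0 for E62C minus SO16. With these weights 592, 176, 89, 469, 1014 and 36 of all genes were higher, in the same order. Without weights these were 303, 264, 201, 383, 579 and 83. Shifting the arrays to the same median gave 10 for SO16 (5.07% of all genes higher). It gave 4 for E62C minus PGM2 (6.2%), where 0 members had passed. Quantile normalization of the named genes gave 11 for SO16 (5.71% of all genes higher) and 10 for PGM2 (8.33%). For E62C minus PGM2 it gave 4, 2 higher and 2 lower (284 and 368 of all genes). An intensity trend gave 2 for E62C minus SO16 (1.56% of all genes higher) and 1 for E62C minus PGM2 (4.04%). At an adjusted p under 0.01 the counts were 9 for E62A, 4 for E62C, 0 for SO16 and 2 for PGM2. Here 2.46%, 1.8%, 1.84% and 3.27% of all genes were higher. Between groups the counts were 7 for E62A minus SO16 (5.29%), 4 for E62A minus PGM2 (5.78%) and 0 for E62C minus SO16 (0.734%). The F-test gave 10. Without both arrays with weak hybridisation controls the counts were 30 for E62A, 10 for PGM2 and 2 for E62C minus PGM2, 1 higher and 1 lower. Using only the compared groups' arrays gave 3 for E62C, 0 for SO16, 8 for E62A minus SO16 and 0 for E62C minus SO16. This setting leaves fewer degrees of freedom, and 2.26%, 1.76%, 5.74% and 0.459% of all genes were higher. The share of all genes that passed also moved between settings, including the fits with arrays left out. Without both arrays with weak controls, 600 of all genes were higher for E62A and 637 for PGM2 against REF. With all arrays these were 303 and 383. The cause of the other shifts was not tested. Other counts stayed within 1.5 times the reported one, and E62B against REF and SO16 minus PGM2 gave 0 members in all of them. The replicate numbers did not mark 1 pairing across all groups. Over 15 pairs of groups, deviations of same-numbered arrays correlated between -0.35 and 0.54, with 6 above 0.1 and 6 below -0.1. Those above 0.1 lay among E62B, PGM2 and REF (0.52, 0.47 and 0.53) and among E62A, E62C and SO16 (0.31, 0.18 and 0.54). What the arrays within these sets shared was not tested. A replicate block gave 2 members for E62C minus SO16 (1.73% of all genes higher) and 3 for E62C minus PGM2 (5.56%). Against REF it gave 22 for E62A (6.57%) and 21 for E62C (6.11%). PGM2 had 7 against REF, 6 higher (7.54%) and 1 lower, CPA1 (-0.21, adjusted p = 0.0372). In the simulation for E62A against REF, differences of 0.25 were mostly missed at this number of arrays.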
